A study of Homo sapiens with 8 samples.

Results

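In every SH-SY5Y clone of a study of DJ-1 silencing, the array numbered replicate 2 carried a different growth, nutrient and stress profile from the array numbered replicate 1. The comparison used all 8 arrays of the series, 4 of replicate 2 against 4 of replicate 1, each array being set against the other array of its own clone. SH-SY5Y is an established cell line grown from a human neuroblastoma, a tumour of the sympathetic lineage. PARK7, the gene of DJ-1, was silenced by a stably transfected RNAi construct in clones B and G, while clones H and M carried a scrambled control. The labels name no other modification in either condition. Each of the 4 lines is a single clone, so a condition was represented by 2 clones. The labels give no age in culture, passage or treatment for either number, and do not say whether the arrays of a clone came from separate cultures. Culture, extraction, labelling and scanning therefore cannot be told apart. With 1 pair of arrays per clone, the p-values reflect how far the shift varied among the clones. That variation mixes differences between clones with array-to-array spread, which could be technical. Values are log2 probe-set signals, and a shift is the replicate 2 signal minus the replicate 1 signal, so that a shift of 1 is a 2-fold change.

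Several of the transcripts that moved belong to well-known nutrient and stress circuits. TXNIP encodes a thioredoxin-interacting protein that restrains glucose uptake, and its transcription is driven by the glucose-sensing factors MondoA and ChREBP. ATF4 is the transcription factor of the integrated stress response, translated when amino acids are short or the endoplasmic reticulum (ER) is stressed, and it induces TRIB3, CHAC1, amino acid transporters and aminoacyl-tRNA synthetases. SGK1 encodes a kinase whose transcript is induced by serum, glucocorticoids and osmotic stress, and proliferating cells express DNA replication and mitotic genes in successive phases of the cell cycle.

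The targeted transcript matched the labels on all 8 arrays. PARK7 signal was 10.45 and 10.12 in replicates 1 and 2 of clone B, 10.10 and 10.05 in G, 13.11 and 13.14 in H, and 13.11 and 12.95 in M. Its shift of -0.13 (SE 0.07, limma adjusted p = 0.23) was not called. The neuroblast genes PHOX2A (12.94 to 13.37), ISL1 (12.74 to 13.09) and DBH (12.79 to 13.63) were bright on every array, whereas TH, encoding tyrosine hydroxylase, stood at 5.87 to 6.19, below the median of all probe-set means (8.06). None of 11 leukocyte markers and none of 10 epithelial markers had a mean at that median or above, against 1 of 9 Schwann and melanocytic and 6 of 18 fibroblast and smooth muscle markers. The median signal per array ranged from 8.03 to 8.08. ACTB probe sets at the 3' end exceeded those at the 5' end, an index of RNA quality, by 0.10 to 0.46 in replicate 1 and by 0.11 to 0.25 in replicate 2. From replicate 1 to replicate 2 this excess changed by -0.21 in B, -0.10 in G, -0.11 in H and 0.01 in M. Its part in the shifts was not tested.

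TXNIP, whose product inhibits thioredoxin and glucose transport, showed the largest fall among the named genes. On the probe set with the smallest p it went from 12.39 to 9.0 in clone B, from 12.18 to 8.87 in G, from 10.01 to 7.78 in H and from 10.93 to 7.82 in M. Every replicate 2 array lay below every replicate 1 array, and the knockdown clones were brighter than the scramble clones under both numbers. TXNIP fell by 3.01 (SE 0.17, n = 4 clones), 8.05-fold, with limma adjusted p = 0.000531. The other TXNIP probe sets fell by 3.02 and 2.51 (limma adjusted p = 0.000998 and 0.0027). SGK1, encoding a kinase that acts downstream of phosphoinositide 3-kinase, went from 11.13 to 9.26 in B, from 11.30 to 10.19 in G, from 11.95 to 10.36 in H and from 12.56 to 9.65 in M. Here too the replicate numbers did not overlap. SGK1 fell by 1.87 (SE 0.24, 3.66-fold, limma adjusted p = 0.0040).

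CHAC1 encodes a glutathione-degrading enzyme and TRIB3 a pseudokinase, both induced by ATF4. CHAC1 went from 8.46 to 9.55 in B, from 8.22 to 9.70 in G, from 7.40 to 9.23 in H and from 7.40 to 8.31 in M. It rose in every clone, but replicate 2 of clone M remained below replicate 1 of clone B. CHAC1 rose by 1.33 (SE 0.14, 2.51-fold, limma adjusted p = 0.0030). TRIB3 went from 9.63 to 10.98 in B, from 9.70 to 11.06 in G, from 9.57 to 11.13 in H and from 9.33 to 10.06 in M, with no overlap between the numbers. TRIB3 rose by 1.25 (SE 0.12, 2.38-fold, limma adjusted p = 0.0024). In a fit that ignored the pairing of arrays within clones, CHAC1 lost its call (limma adjusted p = 0.10), as did the other TXNIP probe sets (0.060 and 0.058).

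**Figure D1:**
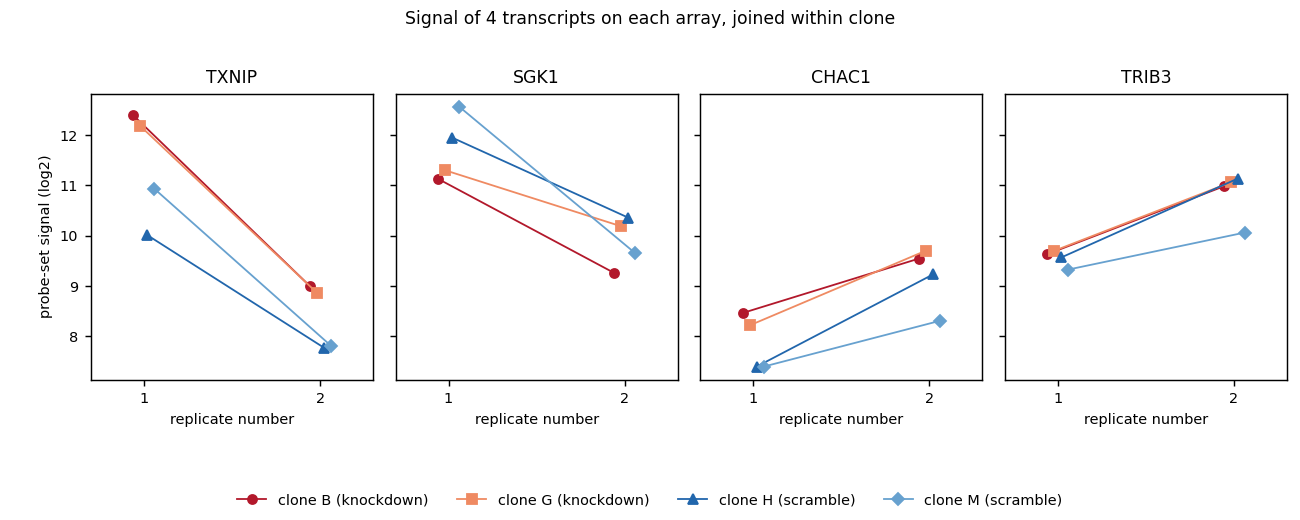
Log2 probe-set signal (vertical axis) of TXNIP, SGK1, CHAC1 and TRIB3 on the replicate 1 and replicate 2 array of each clone, with a line joining the arrays of a clone. TXNIP and SGK1 fall and CHAC1 and TRIB3 rise along all 4 lines, and TXNIP drops from 10.01 to 12.39 in replicate 1 to 7.78 to 9.0 in replicate 2.

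The RefSeq promoters of these genes (GRCh38.p14, 250 bases before the start to 50 after it) were searched on both strands for elements that the cited factors are known to bind. For TXNIP the element was a carbohydrate response element, sought as the letters CACGNG repeated after a gap of 5 bases, and for ATF4 targets the core of the CEBP-ATF response element, written TGATGNAA. The sequences below are the 250 bases before the start of TXNIP (chr1:145996580-145996829, minus strand), CHAC1 (chr15:40953221-40953470, plus strand) and ASNS (chr7:97872409-97872658, minus strand), shown because each holds the element of its factor; for TXNIP and ASNS this is 1 of 2 listed promoters. They are written 5' to 3' on the gene's strand with the match in capitals. ASNS encodes asparagine synthetase, a standard ATF4 target.
TXNIP: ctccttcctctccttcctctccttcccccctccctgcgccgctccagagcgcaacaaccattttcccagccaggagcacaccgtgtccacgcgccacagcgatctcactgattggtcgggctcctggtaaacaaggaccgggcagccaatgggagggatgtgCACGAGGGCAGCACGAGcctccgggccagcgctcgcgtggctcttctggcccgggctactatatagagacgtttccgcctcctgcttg
CHAC1: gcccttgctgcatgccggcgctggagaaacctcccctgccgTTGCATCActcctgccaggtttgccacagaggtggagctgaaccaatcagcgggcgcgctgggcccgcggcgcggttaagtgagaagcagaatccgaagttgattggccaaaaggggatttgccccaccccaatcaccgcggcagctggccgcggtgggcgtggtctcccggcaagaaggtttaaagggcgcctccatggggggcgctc
ASNS: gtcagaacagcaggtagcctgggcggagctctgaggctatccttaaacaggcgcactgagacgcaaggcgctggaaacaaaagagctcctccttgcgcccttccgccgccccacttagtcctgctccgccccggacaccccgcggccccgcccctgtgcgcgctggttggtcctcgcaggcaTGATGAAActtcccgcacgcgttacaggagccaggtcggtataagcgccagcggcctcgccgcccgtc
The TXNIP match began 88 bases before the start, the CHAC1 match, which lies on the opposite strand, 209 bases before it, and the ASNS match 68 bases before it. The carbohydrate element was found in 20 of 35116 promoters (0.057%), and TXNIP was the only gene of the glucose-responsive list with a match. The ATF4 core was found in 3.62% of all promoters, in 6 of 34 promoters (17.6%) of the ATF4 list, in 6 of 27 (22.2%) of the amino acid transporters and in 6 of 18 (33.3%) of the aminoacyl-tRNA synthetases. The searched letters were not found in the windows of TRIB3 or SGK1. A match describes the sequence only.

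Across the array, limma called 2966 of 22215 probe sets (13.4%) at an adjusted p under 0.05. Of these, 1021 (4.6%) were higher and 1945 (8.76%) lower in replicate 2, so that 34.4% of the calls were rises. After quantile normalization 2859 were called, 1279 higher and 1580 lower, and the share of rises was 44.7%. The change was 2-fold or more for 144 called probe sets, of which 107 were falls. The direction was the same in all 4 clones for 2927 of the calls. The count depended on individual clones: it was 767 without clone B, 984 without G, 1923 without H and 3631 without M. With single arrays left out and clone as a random block, where 2543 were called, it dropped to 926 or 1009 on leaving out replicate 1 or 2 of clone B, to 1184 or 970 for those of G, and to 1250 for replicate 1 of M. Without the pairing within clones only 183 were called. The lists below use the brightest probe set of each gene, on which basis 1756 of 11963 genes (14.7%) were called, 4.56% higher and 10.1% lower, with a median shift of 0.02.

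The amino acid response rose. Of 28 measured genes of the ATF4 list, which overlaps the ER and transporter lists, 16 rose and none fell, with a median shift of 0.59, and 19 were higher in replicate 2 of every clone, against 19.8% of all genes. CEBPB, a bZIP factor that dimerizes with ATF4, went from 9.70 to 11.22 in B, from 9.55 to 11.46 in G, from 8.50 to 11.23 in H and from 9.14 to 10.01 in M. The replicate numbers did not overlap, and CEBPB rose by 1.76 (SE 0.24, 3.39-fold, limma adjusted p = 0.0053). SLC7A11, the cystine importer that supplies glutathione synthesis, went from 8.76 to 10.15 in B, from 7.88 to 10.20 in G, from 5.83 to 9.41 in H and from 6.74 to 7.49 in M. It rose by 2.01 on the fitted scale (SE 0.38, limma adjusted p = 0.014), although replicate 2 of clone M lay below replicate 1 of clones B and G. STC2, encoding the secreted glycoprotein stanniocalcin 2, rose by 1.56 (SE 0.19, limma adjusted p = 0.0036), and DDIT3, encoding the pro-apoptotic factor CHOP, by 1.08 (SE 0.09, limma adjusted p = 0.0012). The ATF4 transcript itself rose by 0.70 and ASNS by 0.84 (limma adjusted p = 0.0076 and 0.019). VEGFA, an angiogenic factor, rose by 0.82 and PSAT1, of serine synthesis, by 0.68 (limma adjusted p = 0.0095 and 0.025). PHGDH, the first enzyme of that pathway, had a shift of 0.42 and was not called (limma adjusted p = 0.12).

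Genes that import and charge amino acids moved with them. Among 18 amino acid transporters, 5 rose and none fell, with a median of 0.12. SLC7A5 and SLC3A2, the subunits of the large neutral amino acid exchanger, rose by 1.19 and 0.68 (limma adjusted p = 0.0093 and 0.012), and SLC1A4, a neutral amino acid carrier, by 0.75 (adjusted p = 0.023). SLC7A5 went from 10.57 to 11.69 in B, from 10.45 to 11.72 in G, from 9.29 to 11.24 in H and from 9.48 to 9.91 in M, the smallest step being in M. Among 16 cytosolic aminoacyl-tRNA synthetases, 5 rose and 1 fell, with a median of 0.30. WARS1, SARS1 and CARS1, which charge tryptophan, serine and cysteine tRNAs, rose by 0.89, 0.87 and 0.76 (limma adjusted p = 0.0033, 0.010 and 0.0077). VARS1, the valine enzyme, fell by 0.37 (limma adjusted p = 0.010). NIBAN1, a stress-induced gene, was also higher in replicate 2 of every clone. Its signal went from 5.92 to 8.51 in B, from 5.74 to 8.52 in G, from 5.20 to 8.37 in H and from 7.23 to 8.15 in M, so the replicate 2 arrays were close together while replicate 1 of M stood above the other replicate 1 arrays. Replicate 1 of B, G and H, and that of H for SLC7A11, lay below the mean signal of the leukocyte marker list, which was 6.17 to 6.43 across arrays and is taken here as a sign of background. NIBAN1 rose by 2.36 on the fitted scale (SE 0.31, limma adjusted p = 0.0046), and no fold is given for either gene. Transporter calls numbered 2 without clone B, 1 without G and 3 without H, and synthetase rises 3 without B, 3 without G, 8 without M and 9 after quantile normalization.

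ER folding genes rose as well. Of 24 measured, 11 rose and none fell, with a median of 0.27. HYOU1 and CALR, ER chaperones, rose by 0.58 and 0.51, and HERPUD1, of ER-associated degradation, by 0.80 (limma adjusted p = 0.0027, 0.0027 and 0.0030). HYOU1 went from 11.09 to 11.68 in B, from 11.21 to 11.65 in G, from 11.31 to 12.05 in H and from 11.50 to 12.04 in M, with no overlap between the numbers. XBP1, a transcription factor of the unfolded protein response, rose by 0.71 (SE 0.12, limma adjusted p = 0.0094). HSPA5, the main ER chaperone, had a shift of 0.43 and was not called (limma adjusted p = 0.064), with single-clone values of 0.42 in B, -0.09 in G, 0.89 in H and 0.51 in M. The ER count was 7 without clone B. Cytosolic heat shock genes were mixed, 3 rising and 6 falling of 19 with a median of 0.02, among them the chaperones HSPA2 (fell by 0.81) and HSPA4L (fell by 0.51), with limma adjusted p = 0.0089 and 0.0044. Falls in that list numbered 1 without clone B, 2 without G and 4 without H, and rises 1 in each of these.

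Cell cycle transcripts fell in all clones. Of 30 mitosis, spindle and cyclin genes, 29 fell, with a median shift of -0.99, and all 30 were lower in replicate 2 of every clone, against 20.6% of all genes. Of 29 genes of DNA replication and nucleotide supply, 28 fell, with a median of -0.59. TOP2A, the topoisomerase that untangles chromosomes, went from 12.80 to 11.54 in B, from 11.91 to 11.03 in G, from 12.01 to 11.33 in H and from 12.17 to 10.33 in M. The numbers did not overlap, and TOP2A fell by 1.17 (SE 0.16, 2.25-fold, limma adjusted p = 0.0052). BUB1, a spindle checkpoint kinase, fell by 1.26, DLGAP5, a spindle assembly factor, by 1.41 and CDC25C, the phosphatase that activates CDK1, by 1.40 (limma adjusted p = 0.0056, 0.0042 and 0.0030). RRM1, the large subunit of ribonucleotide reductase, went from 11.31 to 10.37 in B, from 11.14 to 10.44 in G, from 10.78 to 10.08 in H and from 10.94 to 9.68 in M, again without overlap. RRM1 fell by 0.90 (SE 0.10, limma adjusted p = 0.0030), the replicative helicase subunits MCM6 and MCM2 by 0.65 and 0.55, and the polymerase epsilon subunit POLE2 by 0.85 (limma adjusted p = 0.0030, 0.0039 and 0.0030). The proliferation antigen gene MKI67 fell by 0.91 (limma adjusted p = 0.019). PLK1, a mitotic kinase, had a shift of -0.70 and was not called (limma adjusted p = 0.10), its clone values being -0.53 in B, -0.36 in G, -0.06 in H and -1.84 in M. Without clone B limma called 9 mitotic and 16 replication genes, and without clone G 21 and 18. The E2F motif TTTGGCGC was found in 6 of 37 promoters (16.2%) of the replication list and in none of 28 of the mitosis list, against 0.652% of all promoters.

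The cell cycle fall and the amino acid response had opposite orders among clones. The mitotic median was -1.83 in M, -0.97 in B, -0.76 in G and -0.43 in H. The ATF4 median was 0.20 in M, 0.50 in B, 0.65 in G and 0.99 in H. Clone M thus had the deepest mitotic fall and the smallest ATF4 rise, and clone H the reverse, although both carried the scrambled construct. The replication median gave the same order as the mitotic one, at -0.84 in M, -0.64 in B, -0.54 in G and -0.36 in H. These orders rest on 4 clones with 1 pair of arrays each and were not tested.

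**Figure D2:**
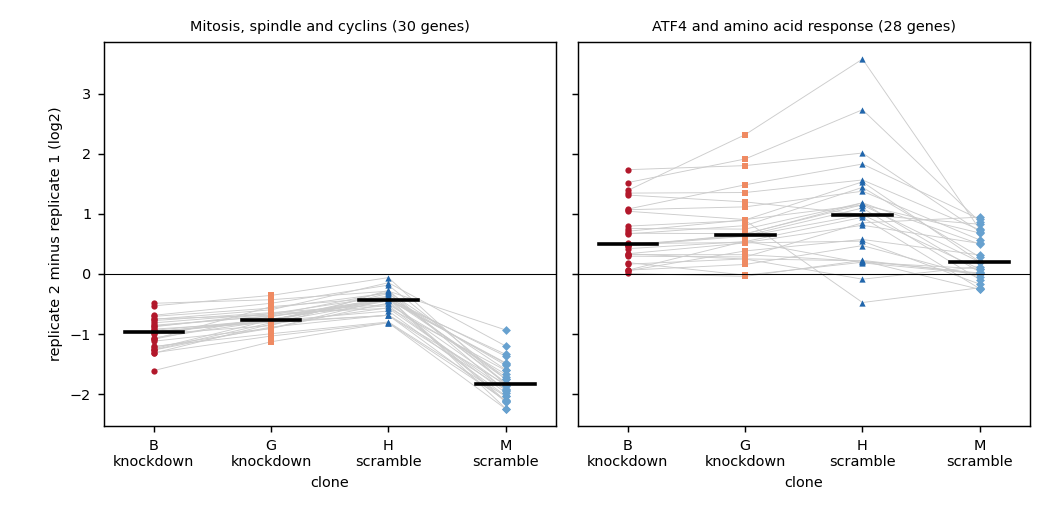
Replicate 2 minus replicate 1 (log2, vertical axis) in each clone for the 30 mitotic genes (left) and the 28 ATF4 genes (right); each point is a gene, grey lines join a gene across clones and black bars are medians. The mitotic medians run from -0.43 in H to -1.83 in M, and the ATF4 medians from 0.20 in M to 0.99 in H.

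Targets of bone morphogenetic protein (BMP) and transforming growth factor beta signalling formed a further group that fell, in a list added after the data were seen. Of 23 measured genes, 11 fell and none rose, with a median of -0.27. ID1, ID2 and ID3 encode inhibitors of bHLH factors and are direct BMP targets. ID3 went from 10.65 to 9.35 in B, from 10.67 to 9.46 in G, from 10.83 to 9.65 in H and from 11.07 to 10.22 in M, with no overlap. ID3 fell by 1.14 (SE 0.08, limma adjusted p = 0.0010), ID2 by 1.04 and ID1 by 1.13 (limma adjusted p = 0.0012 and 0.0045). SMAD6, an inhibitory SMAD, fell by 1.48 (SE 0.17, limma adjusted p = 0.0033) on the named probe set, while only 1 of its 4 probe sets was called and 3 had that sign. TBX3, a T-box repressor, fell by 1.14 (limma adjusted p = 0.0018).

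Other large falls came from several functions. PLXNA2, a semaphorin receptor, had the most even change, from 10.64 to 9.10 in B, from 10.54 to 9.12 in G, from 10.53 to 9.15 in H and from 10.38 to 8.98 in M. The 4 clones were nearly superimposed under both numbers, and PLXNA2 fell by 1.44 (SE 0.06, 2.71-fold, limma adjusted p = 0.000205). VIP, a neuropeptide, went from 8.14 to 5.43 in B, from 7.16 to 4.95 in G, from 9.79 to 7.81 in H and from 8.58 to 7.02 in M, a fitted fall of 2.11 (SE 0.16, limma adjusted p = 0.0012), with overlap between clones. Replicate 2 of B and G lay below the leukocyte marker mean for VIP and TNFAIP6, and of B, G and H for SNAI2, so their differences rest partly on signals near background and no fold is given. SNAI2, a neural crest repressor, fell by 1.94 (SE 0.14, limma adjusted p = 0.0010). RPH3A, a synaptic vesicle protein, fell by 1.46 and CUX2, a homeobox gene, by 1.49 (limma adjusted p = 0.000544 and 0.0012). TFPI2, a protease inhibitor, and TNFAIP6, a hyaluronan-binding protein, fell by 1.52 and 1.51 (limma adjusted p = 0.0056 and 0.0030).

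Neuronal and mesenchymal genes moved in both directions or by clone. Of 25 neuronal structure and synapse genes, 4 rose and 9 fell, with a median of -0.17. DCX and DPYSL3, which act on microtubules and growth cones of young neurons, rose by 0.79 and 0.76, and the neurofilament gene NEFM fell by 1.07 (limma adjusted p = 0.0055, 0.0030 and 0.0030). Of 21 catecholamine and neuroblast identity genes, 1 rose and 4 fell, with a median of 0.03, but 1 fell without clone B or G, and 3 rose and 2 fell after quantile normalization. The granule protein gene CHGA rose by 0.59 and the neuropeptide gene NPY fell by 0.97 (limma adjusted p = 0.016 and 0.0030). Of 20 mesenchymal neuroblastoma markers, 8 fell, with a median of -0.34, and their median was -0.02 in M against -0.49 in H. VIM, encoding vimentin, fell by 0.43 and NOTCH2 by 0.93 (limma adjusted p = 0.022 for both). Mesenchymal falls numbered 1 without clone B, 2 without G and 3 without H, and neuronal falls 2, 4 and 5. Other-cell marker lists gave 1 rise and 1 fall of 18 for fibroblast and smooth muscle, 1 rise of 9 for Schwann and melanocytic, 1 fall of 10 for epithelial and no limma call of 11 for leukocyte markers, 1 of which had an unadjusted p under 0.05. Their part in the other results was not tested.

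Calls in the cholesterol, respiratory chain and glycolysis lists were mostly falls, where 10.1% of all genes fell. Of 19 cholesterol synthesis and uptake genes, 8 fell and none rose, with a median of -0.25. INSIG1, a sterol sensor, and HMGCS1, an early enzyme of the pathway, fell by 0.87 and 0.77 (limma adjusted p = 0.0058 and 0.0030). HMGCS1 went from 8.76 to 7.81 in B, from 8.61 to 7.71 in G, from 8.39 to 7.76 in H and from 8.20 to 7.60 in M, with no overlap. Fatty acid synthesis genes gave 1 fall of 11 (median -0.17), the elongase ELOVL6 by 0.40 (limma adjusted p = 0.011), and none without clone B or G. Of 28 respiratory chain and ATP synthase genes, 13 fell and none rose, with a median of -0.16, UQCRC1 of complex III by 0.50 (limma adjusted p = 0.0026). Glycolysis and HIF targets gave 3 rises and 10 falls of 33 (median -0.13): lactate dehydrogenase LDHA fell by 0.58 and enolase ENO1 by 0.33 (limma adjusted p = 0.0030 and 0.0040). VEGFA, whose rise of 0.82 is given above, also belongs to this list. Of 9 glucose-responsive genes, TXNIP and PFKFB3, an activator of glycolysis, fell and hexokinase HK2 rose, the latter by 0.53 (limma adjusted p = 0.040), and the list median was 0.14. These calls depended on clones: cholesterol falls numbered 5 without B and 4 without G, respiratory falls 2 without B, 2 without G and 6 without H, and glycolysis falls 2 without B, 6 without G and 4 without H. After quantile normalization the respiratory and glycolysis falls numbered 8 and 5.

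Calls in the redox and p53 lists were mostly falls, as were 1210 of the 1756 calls over all genes. The ribosomal protein, MYC target, lysosome and interferon lists held few calls. Among 27 NRF2, glutathione and thioredoxin genes, 11 fell and SLC7A11 alone rose, with a median of -0.21. Thioredoxin (TXN) fell by 0.32 and the pentose phosphate enzyme TKT by 0.37 (limma adjusted p = 0.012 and 0.0036), and falls numbered 1 without B, 1 without G and 7 after quantile normalization. Of 18 p53 targets 6 fell and none rose, with a median of -0.16, the DNA damage gene DDB2 by 0.79 and the polo-like kinase PLK2 by 1.07 (limma adjusted p = 0.0027 and 0.0070), PLK2 being below the leukocyte marker mean on 5 arrays, and 3 fell without clone B or G. Apoptosis regulators gave 1 rise and 2 falls of 16 (median 0.03), APAF1, the apoptosome scaffold, falling by 0.78 (limma adjusted p = 0.0026). Immediate early genes gave 3 rises and 2 falls of 25 (median 0.03), JUN rising by 0.47 and ATF3 by 0.59 (limma adjusted p = 0.0050 and 0.020). None of 19 cytosolic ribosomal protein genes was called by limma, and 0 had an unadjusted p under 0.05 (median 0.02). Ribosome biogenesis and MYC targets gave 2 rises and 1 fall of 23 (median 0.04), the fall being MYC itself, by 0.36 (limma adjusted p = 0.033). FOXO and low-insulin genes gave 1 rise and 2 falls of 24 (median -0.05), KLF6 falling by 0.66 (limma adjusted p = 0.0052). SGK1 and its glucocorticoid and osmotic list gave 1 rise, TSC22D3 by 0.53, and 2 falls of 15 (median 0.01), TSC22D3 being a glucocorticoid target (limma adjusted p = 0.0045). Lysosome and autophagy genes gave 1 rise and 3 falls of 28 (median -0.00), metallothionein and metal response genes 2 rises of 10 (median 0.19), and interferon genes 1 rise of 24 (median 0.07).

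**Figure D3:**
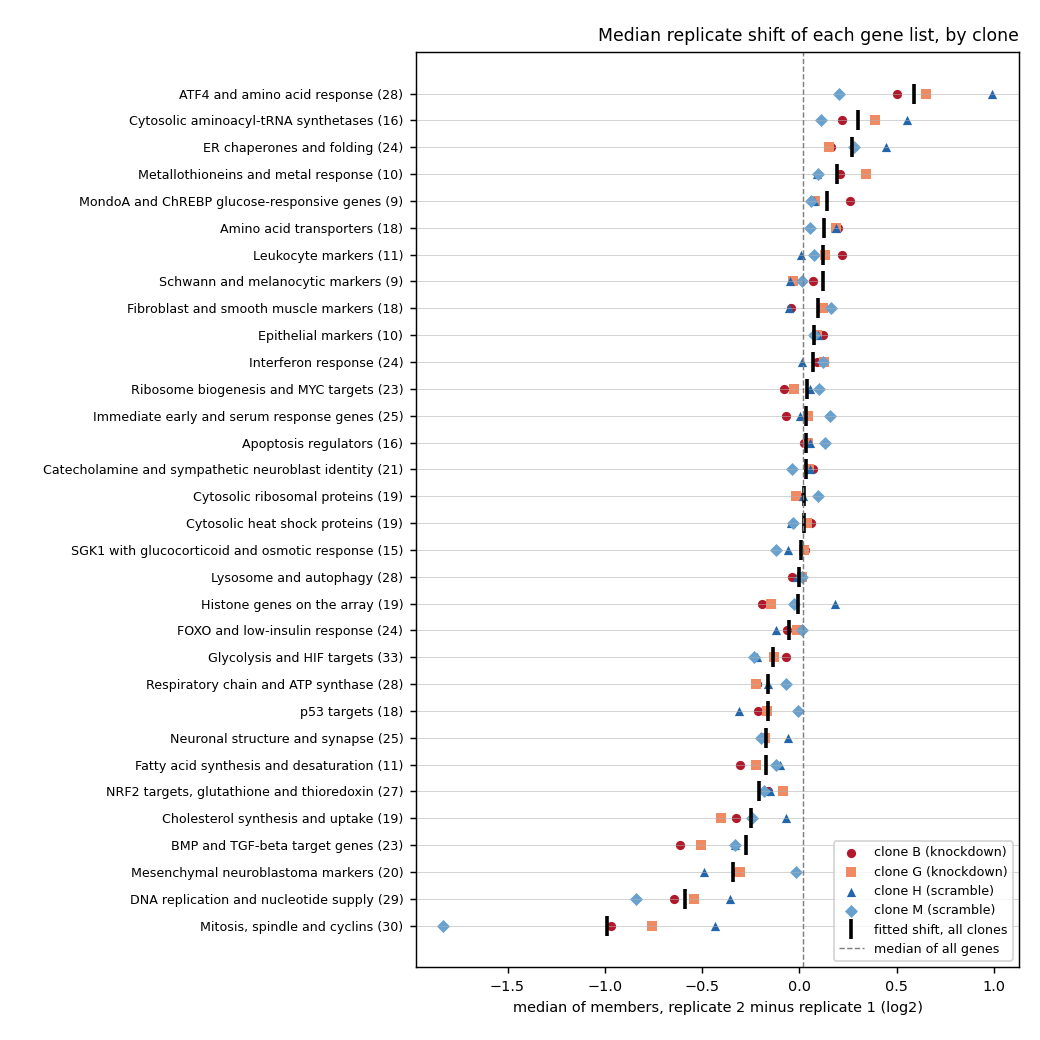
Median shift of each gene list (log2, replicate 2 minus replicate 1, horizontal axis) in each clone, with the number of measured genes in brackets; black bars are medians of the fitted shift over the 4 clones and the dashed line is the median of all genes. The ATF4 list (0.59) and the mitosis list (-0.99) lie at the ends, and clones M and H mark the extremes of both.

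Histone genes behaved unevenly. In a list added after the data were seen, 4 of 19 rose and 2 fell, with a median of -0.01, while 2 rose and 4 fell without clone H. Most histone transcripts lack a poly(A) tail and labelling primed on poly(A) favours the exceptions; near-identical histone copies can share probes, so signals of single genes are uncertain. H2AC6 went from 9.84 to 10.90 in B, from 9.58 to 10.78 in G, from 8.27 to 10.47 in H and from 7.44 to 9.84 in M, and rose by 1.72 (SE 0.22, limma adjusted p = 0.0039). H2BC21 rose by 1.28, whereas the linker histone gene H1-10 fell by 0.60 (limma adjusted p = 0.0012 and 0.0030).

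The remaining large rises were FLRT1, an adhesion protein, by 1.88, TACC2, a centrosomal protein, by 1.59, NEBL, an actin-binding protein, by 1.50 and KCNAB1, a potassium channel subunit, by 1.24 (limma adjusted p = 0.0033, 0.0076, 0.0041 and 0.0027). FLRT1 went from 8.13 to 9.63 in B, from 8.35 to 9.54 in G, from 7.14 to 9.89 in H and from 7.48 to 9.58 in M. The scramble clones started lower and ended level with the knockdown clones.

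The shift was then compared between the conditions, with both estimated in 1 limma fit. Within the knockdown clones 868 probe sets (3.91%) were called, 209 higher (0.941%) and 659 lower (2.97%), and within the scramble clones 409 (1.84%), 161 higher (0.725%) and 248 lower (1.12%). Both conditions called 221 probe sets, all in the same direction, which is 25.5% of the knockdown calls and 54.0% of the scramble calls. The counts moved with single clones, the knockdown count being 0 without B, 52 without G, 5965 without H and 6000 without M, and the scramble count 143, 142, 3100 and 2102. With 1 clone of a condition left out, the lone clone is assumed to vary like the others, and the spread comes from fewer clones. The direct test of the difference, knockdown shift minus scramble shift, called no probe set (0%) with limma. At an unadjusted p under 0.05 it gave 1869, and the smallest adjusted p was 0.0993. Array weights gave 1 call, and the difference called 1366 without clone H and 152 without clone M. On simulated data of this layout, the test of the difference recovered 19% of 100 probe sets changed by 1 and 78% of 100 changed by 2. In that simulation differences of 1 were mostly not detected. It gave each probe set the same spread in every clone and changed few probe sets, unlike the real arrays, so the real share may differ.

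Similarity among clones was uneven. Across 22215 probe sets, which share the array and its processing, the shifts of B and G correlated at r = 0.78, those of H and M at 0.42, and those of a knockdown with a scramble clone at 0.46 to 0.58. Shifts differed by 1 or more for 36 probe sets between B and G and for 314 between H and M. Changes of 2-fold or more numbered 73 up and 259 down in B, 37 and 95 in G, 93 and 88 in H, and 82 and 262 in M.

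In the ATF4 and mitosis lists, the medians of H and M lay on either side of the knockdown clones. The ATF4 median was 0.56 in knockdown and 0.63 in scramble clones, and the mitotic median -0.87 and -1.09. The median of the gene differences was 0.04 for the ATF4 list and 0.22 for the mitosis list. For ER folding the medians were 0.17 and 0.39, with B (0.16) and G (0.15) both below H (0.45) and M (0.28). For the BMP list they were -0.56 and -0.22, with B (-0.61) and G (-0.51) both below H (-0.33) and M (-0.33). The median of the gene differences was -0.22 for ER folding and -0.05 for the BMP list. Among other lists it was -0.22 for cholesterol, -0.21 for fatty acid synthesis and -0.31 for histones. In these, the medians of B and G were both below those of H and M. For glycolysis and HIF targets it was 0.18, with B (-0.07) and G (-0.13) both above H (-0.22) and M (-0.23). These list differences were not tested. No mitotic gene had an unadjusted p under 0.05 for the difference, and no listed gene had an adjusted p under 0.05. TXNIP shifts were -3.35 in the knockdown and -2.67 in the scramble clones, a difference of -0.67 (SE 0.27, limma adjusted p = 0.59). On the other TXNIP probe sets the difference was -0.86 and -1.14 (limma adjusted p = 0.57 for both). SGK1 shifts were -1.49 and -2.25 (difference 0.76, adjusted p = 0.65), CHAC1 shifts 1.28 and 1.37 and TRIB3 shifts 1.35 and 1.15 (adjusted p = 0.95 and 0.83).

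**Figure D4:**
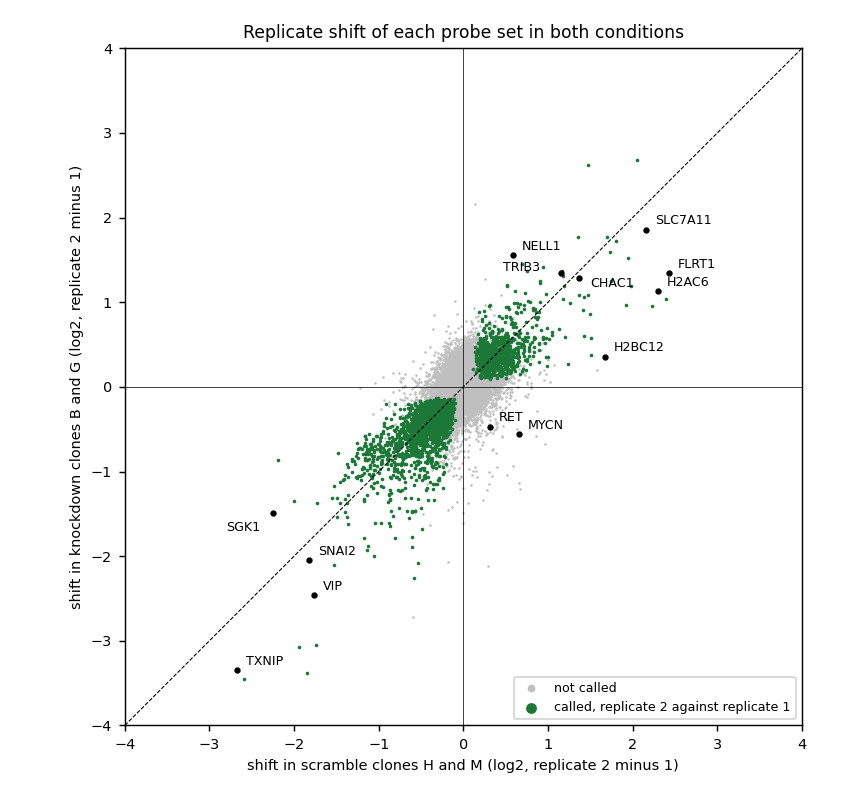
Replicate shift of each of 22215 probe sets in the scramble clones (horizontal axis) and the knockdown clones (vertical axis), both in log2; the dashed line marks equal shifts and green points are the 2966 calls of replicate 2 against replicate 1. A point off the line had shifts of different size in the conditions: H2BC12, H2AC6, FLRT1, MYCN and RET lie below it, NELL1 and SGK1 above it.

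No difference between conditions passed the threshold, and those with the smallest p are given as values. The groups are separated, both knockdown shifts lying on 1 side of both scramble shifts, for 41.7% of all probe sets. The 2 knockdown clones were higher and both scramble clones lower in replicate 2 for 4.86%, and the reverse held for 4.47%. H2BC12, a histone gene, had the smallest p. It went from 11.86 to 12.20 in B, from 11.57 to 11.93 in G, from 9.98 to 11.69 in H and from 9.69 to 11.33 in M. The conditions were 1.88 apart in replicate 1 and 0.56 apart in replicate 2, and the difference of shifts was -1.32 (SE 0.09, limma adjusted p = 0.0993). Other histone genes differed in sign, with -1.17 for H2AC6 and -0.96 for H2BC5 (limma adjusted p = 0.49 for both) but 0.39 for H2BC14 and 0.21 for H1-10 (limma adjusted p = 0.82 and 0.63). MYCN, the neuroblastoma oncogene, went from 8.65 to 8.17 in B, from 8.79 to 8.15 in G, from 8.52 to 9.36 in H and from 8.69 to 9.18 in M. The difference was -1.22 (SE 0.16, limma adjusted p = 0.49) on this probe set, but -0.44 and 0.07 on the others.

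RET, the signalling receptor for the GDNF family, was also among these genes. It went from 10.82 to 10.29 in B, from 10.94 to 10.53 in G, from 12.20 to 12.44 in H and from 12.47 to 12.87 in M. Knockdown arrays lay below scramble arrays under both numbers, by 1.46 in replicate 1 and 2.24 in replicate 2, a difference of -0.79 (SE 0.10, limma adjusted p = 0.49). SMCO4, a small membrane protein gene, had a difference of -1.17. In the other direction were NELL1, a secreted differentiation factor (0.97), TRIM29 (1.10), the glycolytic enzymes HK2 (0.69) and PFKP (0.57), the microtubule-associated gene MAP7 (0.70) and the chemokine receptor gene CXCR4 (0.71). NELL1 went from 8.82 to 10.29 in B, from 7.62 to 9.26 in G, from 6.86 to 7.56 in H and from 6.38 to 6.84 in M. All 12 of these differences were chosen by p on these same arrays, and whether they passed depended on which clone was left out. Fits without a clone leave 1 clone in a condition and reuse the arrays of the selection. They give no separate support. Other large differences lay outside this selection, which went by p, and are named after their values were seen. PDGFRA, a growth factor receptor of the fibroblast and smooth muscle list, went from 10.11 to 7.62 in B, from 9.95 to 8.31 in G, from 10.34 to 9.85 in H and from 11.15 to 11.28 in M, a difference of -1.89 (SE 0.31, limma adjusted p = 0.57). TACC2 had a difference of -1.28 and GDF15 of 1.20 (limma adjusted p = 0.57 and 0.49).

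The shift also depended on signal level. In 5 equal groups of probe sets ordered by mean signal, the median fitted shift was 0.07, 0.09, 0.02, -0.04 and -0.04 from the dimmest to the brightest. The interquartile range of signals was smaller in replicate 2 in all 4 clones, by 0.24 in B, 0.15 in G, 0.04 in H and 0.11 in M. Its part in the small shifts was not tested. After quantile normalization 2354 of the probe sets called before were still called, and the medians of the mitosis and ATF4 lists were -0.93 and 0.65.

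**Figure D5:**
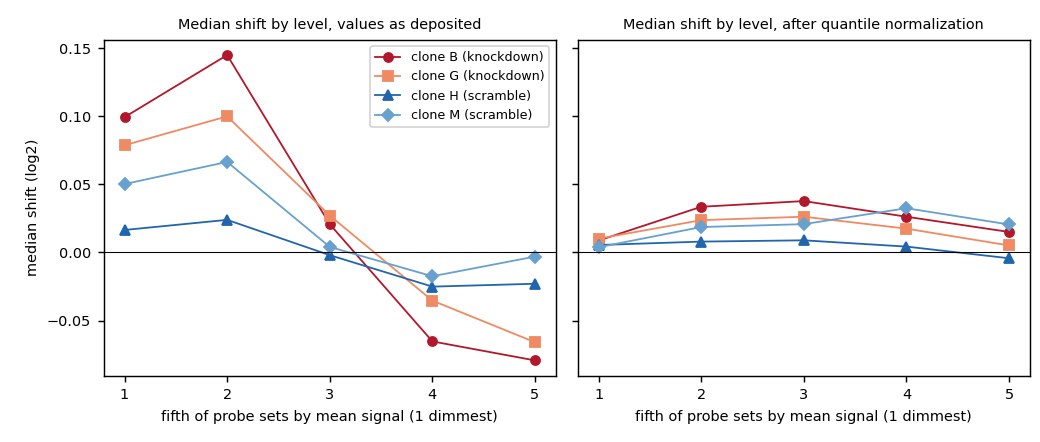
Median replicate shift (log2, vertical axis) in 5 equal groups of the probe sets ordered by mean signal (horizontal axis, 1 dimmest) for each clone, in the deposited values (left) and after quantile normalization (right). Dim probe sets were higher and bright ones lower in replicate 2 before it, with clone B between 0.14 and -0.08, and the slope was flatter after it.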

How the data were processed

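Signals of 8 one-colour Affymetrix arrays were deposited as log2 values per probe set, made by the authors with GCOS and RMA per the submitters' processing notes; their versions are not given in the sources used here, and the log2 scale was read from the values. RMA subtracts background, equalises array distributions and summarises probes, which can compress large changes. Precision is limited by the small number of arrays.

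Of 22277 probe sets, 62 manufacturer controls were left out. Names came from the array annotation: 19064 probe sets had 1 gene (19052 updated through RefSeq), 1043 several and 2108 none. Replicate 2 was compared with replicate 1 by limma 3.58.1 in R 4.3.3 (lmFit, eBayes with a trend; clone as a term; two-sided; Benjamini-Hochberg over 22215 probe sets; threshold 0.05). A second fit added replicate by condition. Clone pairs the arrays by label. The fits were tested on simulated data, recovering 89% of 100 probe sets changed by 1 and 99% of 100 changed by 2 for replicate 2 against replicate 1. Promoter sequences are from RefSeq.

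Members and lists were chosen with earlier results of these data known, and the BMP and histone lists, the calls per list without a clone and the level split after the data were seen. Named genes were TXNIP, CHAC1, TRIB3, SGK1 and PARK7, the 12 largest called rises and falls with the same direction in 4 clones and a brighter mean at or above the median level, up to 4 members of each list by p, and 6 differences per direction. Neuroblast markers and ASNS, ATF4, CEBPB, STC2, VEGFA, PSAT1, PHGDH, XBP1, HSPA5, ID1, MKI67, PLK1, PLK2, MYC, H2BC5 and GDF15, where outside this rule, were chosen after their values were seen. Alternatives were no trend, a level filter, quantile normalization, median centring, array weights, no pairing, clone as a random block, and leaving out arrays or clones.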

Additional observations from a re-analysis of the deposited data

Results flagged for a closer look

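For 7 named genes, 1 clone's shift stood apart from the other 3 by more than Dixon's 95% limit, which chance exceeds in about 1 in 20 groups. The named probe sets were 121 called and 34 not called in the main fit, so 7 is about the number expected by chance. These were MLX in clone B (0.34), HERPUD1 in H (1.15), ACSL4 in B (-0.97), GLA in H (-0.35), ENO1 in M (-0.41), HSPA4 in H (-0.24) and FAP in H (-0.10). HERPUD1 rose and GLA, ENO1 and HSPA4 fell in all clones, so the clone that stood apart changed the size and not the direction.

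For 6 named genes the shifts of both knockdown clones had the opposite sign to those of both scramble clones, and no difference passed the limma threshold. CSF1R, a leukocyte marker with signals of 6.12 to 6.65, shifted by only -0.01 in H and -0.003 in M. The knockdown shift minus the scramble shift was 1.20 for GDF15, a stress-induced cytokine of the ATF4 list, 0.70 for MAP7, 0.34 for CSF1R, -0.79 for RET, -1.17 for SMCO4 and -1.22 for MYCN. GDF15 went from 6.19 to 6.99 in B and from 6.29 to 7.18 in G, but from 8.08 to 7.61 in H and from 7.55 to 7.32 in M (limma adjusted p = 0.49 for the difference). Such opposite signs were found for 4.86% of all probe sets with the knockdown higher and 4.47% with it lower. The named probe sets were 121 called and 34 not called in the main fit. Many were chosen for a shared direction or a small p of the shared shift, which disfavours opposite signs. Others were chosen for a difference between conditions, which favours them. The 6 genes therefore cannot be set against that share.

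Among the control probe sets, the 18S ribosomal RNA signal of array B1 was 9.18, above the 7.21 to 8.15 of the other arrays. Its part in the shift of clone B was not tested.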

How the results depend on the processing

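The number of probe sets called for replicate 2 against replicate 1 was 2966, and 5255 with array weights, 1865 with 1 probe set per gene, which tests fewer, and 183 without the pairing by clone (no replicate block). Leaving out clone B, G, H or M gave 767, 984, 1923 or 3631. With clone as a random block, leaving out an array gave 926 (B1), 1009 (B2), 1184 (G1), 970 (G2) and 1250 (M1), and 2079 to 2880 for the others. Within the knockdown clones 868 became 322 without the intensity trend and 4583 with array weights, and 0, 52, 5965 and 6000 without B, G, H and M. Within the scramble clones 409 became 94 without the trend, 195 above the median level, 120 with array weights, and 143, 142, 3100 and 2102 without these clones. The difference gave 0 calls, 1 with array weights, 1366 without H, 152 without M and 0 without B or G. The cause was not tested. Without the pairing, calls fell to 2 mitotic, 0 replication, 2 ATF4 and 1 ER gene. PARK7, not called, reversed its sign with clone as a random block without B2 (0.15), G2 (0.14), H1 (0.078) or M1 (0.17). Each of these leaves fewer knockdown arrays in replicate 2 or fewer scramble arrays in replicate 1. PARK7 differed by -2.84 in replicate 1 and -2.96 in replicate 2, knockdown minus scramble. The part of this imbalance in the reversal was not tested. List medians of the mitosis and ATF4 lists kept their sign, at -1.18 to -0.71 and 0.51 to 0.72 without a clone. Signals near background limit dim genes, since no detection calls were used.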
